A study of Mus musculus with 69 samples.

Results

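The FoxO transcription factors are the 4 genes Foxo1, Foxo3, Foxo4 and Foxo6, taken by symbol from the 55367 gene symbols of a bulk RNA sequencing table of 69 libraries. All 4 were counted in every library and passed the filter on low counts in every fit. Raw counts per library ran from 902 to 4941 for Foxo1, from 577 to 7937 for Foxo3, from 1795 to 9472 for Foxo4 and from 43 to 333 for Foxo6, so that Foxo6 carried the largest counting error.

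The libraries were 3 replicates of each of 23 conditions, made from clones of E14tg2A, a mouse embryonic stem (mES) cell line. WT-mCherry cells carried an H2B-mCherry reporter behind the EF1 alpha promoter, and WT-emiRFP cells an H2B-emiRFP reporter behind the CAG promoter. The p53KO-emiRFP cells were 1 daughter clone of the WT-emiRFP cells, with a homozygous frameshift in Trp53, selected with the Mdm2 inhibitor Nutlin-3a. The 3 clones were measured as mES cells in serum and LIF (0 h) and after fluorescence sorting from mosaic gastruloids, aggregates of mES cells that model gastrulation, at 48, 72, 96, 120 and 144 h, with a pulse of the Wnt agonist CHIR99021 from 48 to 72 h. WT-emiRFP cells came from gastruloids seeded with 150 WT-mCherry and 150 WT-emiRFP cells, and p53KO-emiRFP cells from gastruloids seeded with 150 WT-mCherry and 25 p53KO-emiRFP cells. WT-mCherry cells were sorted from both kinds, and are called beside WT or beside p53KO. As the p53KO cells were a single clone, p53 loss and a peculiarity of that clone cannot be told apart. The smaller seeding number went with the p53KO cells at all gastruloid times, while the mES cells at 0 h were not seeded in gastruloids.

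FoxO proteins are forkhead transcription factors at the end of the insulin and growth factor pathway. When PI3K and the kinase AKT are active, AKT phosphorylates FoxO proteins and the Ywha adaptor proteins hold them in the cytoplasm. When the pathway is quiet they enter the nucleus and switch on genes of cell cycle arrest, apoptosis, antioxidant defence, autophagy and insulin feedback. In pluripotent cells Foxo1 is known for its part in keeping Pou5f1 and Sox2 on, and Foxo3 has been described as a gene that p53 activates. The counts measure RNA, and say nothing of where the proteins were or whether they were phosphorylated.

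Library totals ran from 26722541 to 72981570 counts, with a median of 53098728. Levels are given as normalised read counts, that is raw counts divided by a size factor of each library. The targeted gene, Trp53, stood in p53KO-emiRFP cells at 8.33 to 11.4% of its level in WT-emiRFP cells, as the mean of 3 same-numbered pairs at each time. The 3 replicates came from separate experiments. An exact permutation test of 3 against 3 cannot go below a p of 0.1, so all tests are edgeR's quasi-likelihood test fitted across all genes, with p-values adjusted over all genes and a threshold of 0.05, and a value after ± is the SE of a log2 fold change unless it is named otherwise. In bulk samples, fewer cells of a type and less RNA per cell cannot be told apart.

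The 4 genes lie on different chromosomes (GRCm38, Gencode annotation). Foxo1 spans chr3:52268336-52353221 on the plus strand, Foxo3 chr10:42181841-42276755 on the minus strand, Foxo4 chrX:101254528-101260873 on the plus strand and Foxo6 chr4:120267079-120287349 on the minus strand. In Foxo1, 674 exonic bases are shared with Gm20402 on the opposite strand, which had 0 counts in every library. Foxo6 shares no exonic bases with another annotated gene.

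The starts of Foxo3 and Foxo1 are shown because windows were available for these members alone. Foxo3 was the member that differed most between p53KO and WT cells. Foxo1 was not called different at 0, 48 or 72 h, but was called at 72 h with the replicate number as a block. Both sequences are from RefSeq on GRCm38.p6, a window around the transcription start that lies mostly before it, read 5′ to 3′ along the gene's own strand. Capitals mark the GC box GGGCGG on either strand.
Foxo3, chr10:42276646-42276945, minus strand: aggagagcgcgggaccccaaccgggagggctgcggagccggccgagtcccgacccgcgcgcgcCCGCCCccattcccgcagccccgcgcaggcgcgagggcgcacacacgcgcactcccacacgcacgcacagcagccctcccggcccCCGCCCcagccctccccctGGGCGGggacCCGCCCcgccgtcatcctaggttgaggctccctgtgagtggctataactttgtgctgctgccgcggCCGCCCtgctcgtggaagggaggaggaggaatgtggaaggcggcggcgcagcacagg
Foxo1, chr3:52268087-52268386, plus strand: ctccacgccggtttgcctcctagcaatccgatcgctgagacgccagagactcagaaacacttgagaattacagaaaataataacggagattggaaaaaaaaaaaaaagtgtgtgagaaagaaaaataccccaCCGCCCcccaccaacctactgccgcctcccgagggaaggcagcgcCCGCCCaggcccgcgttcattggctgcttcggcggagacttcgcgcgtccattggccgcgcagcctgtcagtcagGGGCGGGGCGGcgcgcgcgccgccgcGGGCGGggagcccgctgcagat
Each window held 5 GC boxes, some of which overlap in Foxo1, while 35.66% of 32851 mouse promoter windows of the same length held at least 1. GC content was 75.0% for Foxo3 and 61.3% for Foxo1, against a median of 52.7% over all windows. Neither window held a match to the p53 half-site consensus, searched on both strands and found in 8.36% of all windows, nor to GTAAACA, the core that FoxO proteins recognise, found in 3.65%. These are descriptions of short windows and bear on no binding.

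Per kilobase of exon, Foxo4 was the most abundant member in all 23 conditions and Foxo6 the least. On the scale of normalised read counts per kb, condition means ran from 1107 to 2335 for Foxo4, from 95.05 to 919 for Foxo3, from 116 to 546 for Foxo1 and from 22.2 to 74.2 for Foxo6. Among 44 forkhead genes, the mean level per kb over conditions put Foxo4 at rank 2, behind Foxh1, Foxo3 at rank 6, Foxo1 at rank 13 and Foxo6 at rank 23. Foxo3 had a larger mean per kb than Foxo1 in all WT conditions, but at 48 h the means lay within their spread, with 537 ± 75.3 (SD, n = 3) against 526 ± 10.1 in WT-mCherry cells beside WT, 556 ± 44.8 against 519.7 ± 24.2 in WT-emiRFP cells and 576 ± 91.6 against 518 ± 17.1 beside p53KO. In p53KO cells these neighbours stood in the opposite order at 48 h, with 546 ± 9.74 (SD, n = 3) for Foxo1 and 95.05 ± 10.4 for Foxo3, and at 72 h, with 383 ± 13.6 and 135 ± 9.52. At 0 h the p53KO values, 261 ± 4.18 for Foxo1 and 247 ± 11.8 for Foxo3, lay too close to order, since taking the longest transcript as the length put Foxo3 at 273.

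**Figure D1:**
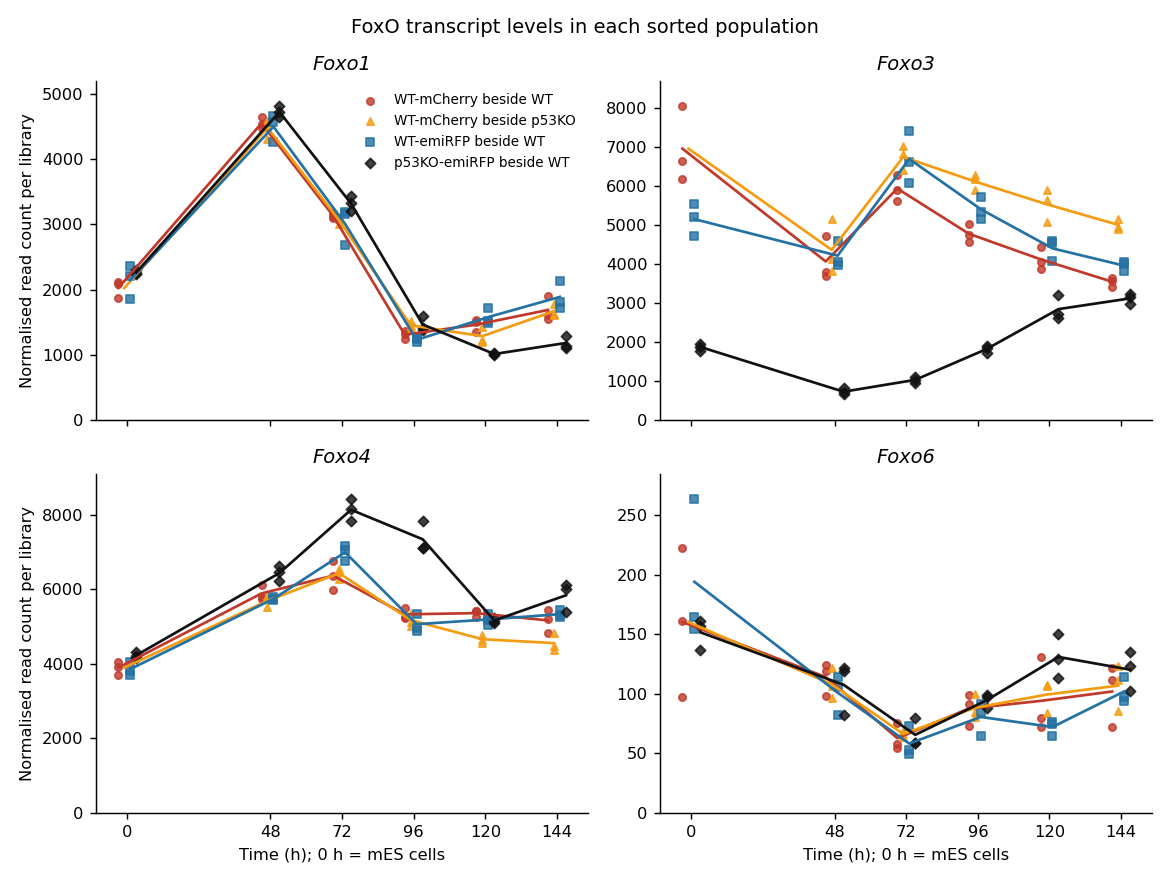
Normalised read count of each FoxO gene per library (vertical axis, linear from 0) against time in hours, with 1 point per library and lines through the means of 3 replicates; the 0 h points are mES cells, and both WT-mCherry lines start at the WT-mCherry mES mean. Foxo3 in p53KO-emiRFP cells stayed below all WT populations at every time, between 648 and 3236, while Foxo1 of all populations peaked at 48 h.

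In WT cells the members followed different courses through the gastruloid. The steps were tested on the mean of the 3 sorted WT populations, or of both WT clones at 0 h. Members passed the test in 16 of 20 steps. These were 4, 4, 4, 2 and 2 members at successive steps, at which 70.3%, 66.9%, 58.6%, 56.8% and 55.4% of all 21132 genes passed, so that a call on a step sets no gene apart.

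Foxo1 rose from 0 to 48 h and then fell until 96 h. In WT-mCherry mES cells it had 2120, 2083 and 1865 normalised read counts, and in WT-emiRFP mES cells 1861, 2214 and 2357. At 48 h the 9 WT libraries held 4266 to 4665, all above every 0 h library. The log2 change was 1.12 ± 0.05 from 0 to 48 h (edgeR adjusted p = 3.5e-27), then -0.56 ± 0.04 to 72 h (adjusted p = 6.8e-17) and -1.21 ± 0.05 to 96 h (adjusted p = 7.4e-31). On the mean of the 3 populations Foxo1 then rose by 0.12 ± 0.05 to 120 h (adjusted p = 0.025) and by 0.28 ± 0.04 to 144 h (adjusted p = 3.4e-07), and the first of these rises was not called without replicate 2 (0.15, adjusted p = 0.052) or replicate 3 (0.03, adjusted p = 0.62), nor with no low-count filter (adjusted p = 0.051). The populations did not move together in that step. On the scale of normalised read counts per kb, their means went from 151 ± 6.7 to 168 ± 11.3 (SD, n = 3) in WT-mCherry cells beside WT and from 142 ± 3.2 to 182 ± 14.2 in WT-emiRFP cells, but from 167 ± 7.27 to 148 ± 14.1 in WT-mCherry cells beside p53KO. The steps of single WT populations were not tested.

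The p53KO cells showed the same signs for Foxo1 up to 96 h, with log2 changes of 1.06 ± 0.08, -0.51 ± 0.08 and -1.18 ± 0.08 (edgeR adjusted p = 4.6e-18, 9.4e-08 and 3.8e-19). From 96 to 120 h, Foxo1 fell in p53KO cells (-0.53 ± 0.08, adjusted p = 1.6e-07). The last p53KO step was 0.22 ± 0.08 (adjusted p = 0.033), which was not called without replicate 1, 2 or 3 (adjusted p = 0.05, 0.19 and 0.17), under TMM scaling (adjusted p = 0.054) or with no low-count filter (adjusted p = 0.067). Members passed the test in 16 of 20 p53KO steps, 4, 4, 3, 3 and 2 of them at successive steps at which 59.5%, 46.4%, 44.5%, 34.9% and 22.7% of all genes passed.

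Foxo3 followed another course. In WT cells it fell from 0 to 48 h (log2 change -0.51 ± 0.06, edgeR adjusted p = 2.1e-11), rose to 72 h (0.61 ± 0.05, adjusted p = 1.3e-15) and fell in 3 smaller steps of -0.26 ± 0.05, -0.22 ± 0.05 and -0.17 ± 0.05 (adjusted p = 2.8e-05, 0.0003 and 0.0042). The last step was not called without replicate 2 (-0.14, adjusted p = 0.13). In p53KO cells the fall to 48 h was -1.37 ± 0.10 on the log2 scale (adjusted p = 3.3e-18), and Foxo3 rose by 0.51 ± 0.10, 0.83 ± 0.10 and 0.64 ± 0.09 in the next 3 steps (adjusted p = 2.4e-05, 1.3e-10 and 8.2e-08), while the last step was 0.13 ± 0.09 (adjusted p = 0.34). From 72 to 120 h Foxo3 therefore moved down in WT cells and up in p53KO cells.

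Foxo4 rose in WT cells by 0.57 ± 0.03 to 48 h and by 0.19 ± 0.03 to 72 h on the log2 scale, and its next step, to 96 h, was a fall (-0.35 ± 0.03) (edgeR adjusted p = 4.7e-23, 3.7e-08 and 5e-16). Its later WT steps were -0.04 ± 0.03 and -0.02 ± 0.03 (adjusted p = 0.3 and 0.67), where from 96 to 120 h the mean per kb went from 1485 to 1338 beside p53KO and from 1530 to 1539 in WT-mCherry cells beside WT. In p53KO cells Foxo4 rose by 0.61 ± 0.05 and 0.34 ± 0.05 (adjusted p = 5e-16 and 5.4e-08), and its main fall came 1 step later, at -0.51 ± 0.05 from 96 to 120 h (adjusted p = 1.1e-12). The p53KO steps to 96 h (-0.15 ± 0.05, adjusted p = 0.011) and to 144 h (0.18 ± 0.05, adjusted p = 0.0052) were not called without replicate 1 (adjusted p = 0.14 and 0.11) or replicate 3 (adjusted p = 0.054 and 0.088), nor with no low-count filter (adjusted p = 0.16 and 0.12).

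Foxo6 went the other way from Foxo4 in WT cells, with log2 changes of -0.74 ± 0.13 to 48 h, -0.78 ± 0.13 to 72 h and 0.45 ± 0.13 to 96 h (edgeR adjusted p = 2.7e-06, 7.7e-07 and 0.0035). In p53KO cells its first steps were -0.49 ± 0.21 and -0.72 ± 0.23 (adjusted p = 0.043 and 0.0078). The first was not called without replicate 1 (adjusted p = 0.33) or 2 (0.058), and the next without replicate 2 (0.14) or 3 (0.089). The p53KO step to 96 h, 0.53 ± 0.23, had an adjusted p of 0.053, and of 0.047 with the replicate number as a block or 0.031 without replicate 1. The later WT steps of Foxo6 were 0.04 ± 0.13 and 0.24 ± 0.13 (adjusted p = 0.82 and 0.096), and the later p53KO steps 0.47 ± 0.21 and -0.13 ± 0.21 (adjusted p = 0.08 and 0.74), of which the first was called without replicate 3 (0.60, adjusted p = 0.05 after rounding).

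The comparison of p53KO-emiRFP with WT-emiRFP cells at each time asked which FoxO transcripts differ without p53. Foxo3 was lower in p53KO cells at all 6 times, most at 48 and 72 h. Foxo4 was higher at 48, 72 and 96 h, Foxo1 was higher at 96 h and lower at 120 and 144 h, and Foxo6 was higher at 120 h. This made 1, 2, 2, 3, 3 and 2 members called at 0, 48, 72, 96, 120 and 144 h, at which 6.13%, 22.0%, 29.1%, 23.3%, 51.0% and 65.3% of all genes tested passed. The late shares are large, so a call at 120 or 144 h does little to set a member apart.

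Foxo3 in mES cells had 1877, 1774 and 1952 normalised read counts in the p53KO clone and 4725, 5199 and 5529 in the WT-emiRFP clone. At 48 h the p53KO replicates held 648, 708 and 804 and the WT-emiRFP replicates 3983, 4053 and 4602, and at 72 h they held 951, 1023 and 1095 against 6070, 6614 and 7403. At each of these times the highest p53KO library lay below the lowest WT library by more than the range of either group. Foxo3 was 2.76-fold lower at 0 h (log2 -1.46 ± 0.11, edgeR adjusted p = 3.6e-06), 5.84-fold lower at 48 h (log2 -2.55 ± 0.12, adjusted p = 3.2e-10) and 6.54-fold lower at 72 h (log2 -2.71 ± 0.08, adjusted p = 2.5e-12). Ranked from the lowest log2 fold change, Foxo3 was number 178 of 18323, 65 of 17686 and 121 of 17714 genes at the 3 times.

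The gap then narrowed. At 96 h the p53KO replicates held 1706, 1852 and 1897 normalised read counts of Foxo3 and the WT-emiRFP replicates 5151, 5334 and 5730. At 120 h the values were 2621, 2710 and 3190 against 4079, 4591 and 4529, and at 144 h 3139, 2972 and 3236 against 3811, 4002 and 4056. The groups did not overlap at these times either. The log2 fold change was -1.57 ± 0.06, -0.63 ± 0.08 and -0.34 ± 0.05 at these times in turn (edgeR adjusted p = 1.1e-10, 2.6e-05 and 3.6e-05). As a share of the same-numbered WT-emiRFP library, Foxo3 in p53KO cells averaged 36.4%, 17.1%, 15.3%, 33.6%, 64.6% and 78.8% over the 6 times in order.

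The difference of the p53KO effect on Foxo3 from that at 0 h was itself called at 4 of 5 times. It was -1.08 ± 0.13 at 48 h and -1.25 ± 0.13 at 72 h, a deeper loss than in mES cells, and 0.83 ± 0.13 at 120 h and 1.12 ± 0.13 at 144 h, a shallower one (edgeR adjusted p = 6.7e-08, 5.1e-10, 5.8e-07 and 1.6e-10). At 96 h it was -0.11 ± 0.13 (adjusted p = 0.71). Over the 4 genes, 1, 1, 1, 3 and 2 members were called in this test at 48 to 144 h, at which 5.98%, 10.5%, 8.65%, 35.4% and 50.1% of all genes passed.

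**Figure D2:**
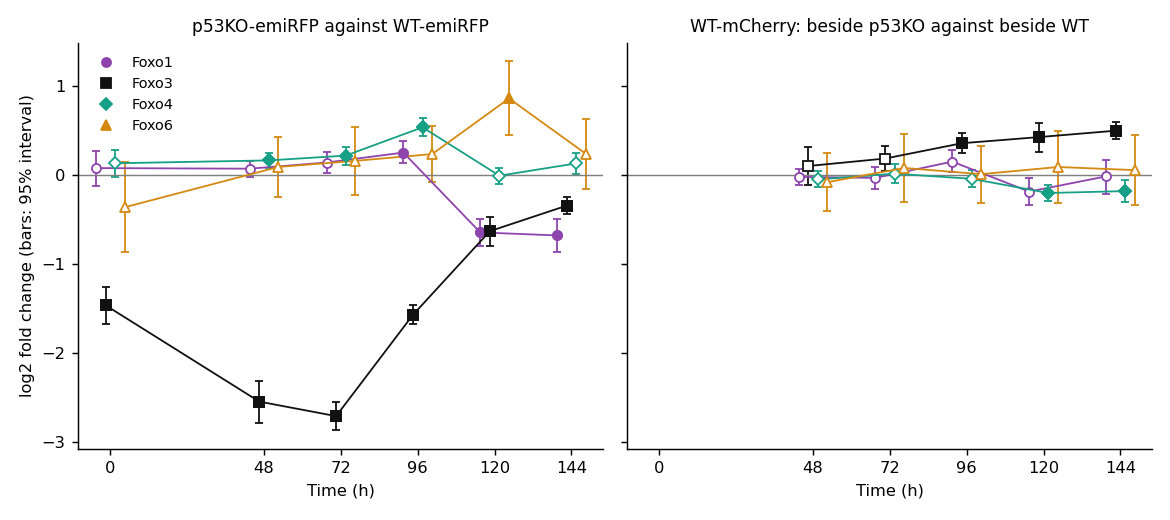
Log2 fold change of the 4 FoxO genes (vertical axis) against time in hours for the p53KO against the WT-emiRFP clone (left) and for the WT-mCherry neighbours of p53KO against those of WT cells (right), with 95% intervals as bars and filled points where the adjusted p was below 0.05. Foxo3 reached -2.71 at 72 h in the first comparison and 0.50 at 144 h in the other.

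Foxo1 lay close to the WT level early. Its log2 fold change in p53KO cells was 0.08 at 0 h (95% interval -0.12 to 0.27), 0.07 at 48 h (-0.02 to 0.16) and 0.14 at 72 h (0.02 to 0.26, edgeR adjusted p = 0.11, or 0.032 with the replicate number as a block). At 96 h the p53KO replicates held 1383, 1597 and 1409 normalised read counts and the WT-emiRFP replicates 1250, 1235 and 1196, a log2 difference of 0.25 ± 0.06 (adjusted p = 0.01) that was not called without replicate 1 (0.30, adjusted p = 0.067) or replicate 2 (0.19, adjusted p = 0.089). By 120 h Foxo1 had changed sides, with 1007, 1002 and 1019 in p53KO cells and 1523, 1491 and 1718 in WT-emiRFP cells (log2 -0.64 ± 0.08, adjusted p = 1.5e-05). At 144 h the values were 1106, 1139 and 1292 against 1721, 1806 and 2134 (log2 -0.68 ± 0.10, adjusted p = 3.2e-05), again without overlap. Both late effects differed from that at 0 h, by -0.72 ± 0.11 and -0.76 ± 0.11 on the log2 scale (adjusted p = 3.8e-07 and 5.1e-08).

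Cell type markers also differed between p53KO and WT-emiRFP cells at every time. The ranges of their summed normalised read counts over the 3 p53KO and the 3 WT-emiRFP libraries are given in that order. The 6 naive pluripotency markers were apart at all times but 48 h, with 155000 to 160600 against 182800 to 193400 at 0 h and 19630 to 20270 against 23350 to 25710 at 72 h. The gap was wider at 96 h (10010 to 11070 against 25000 to 27700) and 144 h (11980 to 18140 against 72440 to 85520). The 4 formative pluripotency markers were apart at all times but 48 and 120 h, with 55660 to 62640 against 35390 to 44840 at 72 h. The 5 paraxial mesoderm markers were apart from 48 h on, with 1060 to 1385 against 809.7 to 899.8 at 48 h. The p53KO range lay below the WT range at 96 h (9412 to 12830 against 16760 to 19630) and above it at 144 h (18770 to 25930 against 3608 to 4826). The 6 haematoendothelial markers were apart from 72 h on, with 987 to 1061 against 1335 to 1736 at 96 h and 1694 to 2159 against 7184 to 7215 at 144 h. The 4 neural markers were apart at 48, 120 and 144 h, with 548 to 602 against 465 to 528 at 48 h and 5546 to 6869 against 1974 to 2528 at 144 h. The 4 endoderm markers were apart at all times but 72 and 120 h. They summed to 50.8 to 86.1 against 141 to 183 at 0 h, 104 to 128 against 76.6 to 92.3 at 48 h and 697 to 835 against 294 to 589.8 at 144 h. At 144 h Msgn1, a paraxial mesoderm gene, had 13 counts summed over the 3 WT-emiRFP libraries. The part of cell type in the differences of the 4 FoxO genes was not tested.

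Foxo4 differed by less. At 48 h p53KO cells had 6227, 6630 and 6460 normalised read counts and WT-emiRFP cells 5705, 5804 and 5729 (log2 0.16 ± 0.04, edgeR adjusted p = 0.015), and at 72 h 8155, 8423 and 7839 against 7058, 7174 and 6759 (log2 0.22 ± 0.05, adjusted p = 0.0063). At 96 h the values were 7111, 7828 and 7100 against 4959, 5341 and 4894, which is 1.45-fold (log2 0.54 ± 0.05, adjusted p = 3.7e-06). The groups did not overlap at these 3 times, and the pairs at 96 h stood at 143 to 146%. The difference at 48 h was not called without replicate 1, 2 or 3 (adjusted p = 0.082, 0.086 and 0.068), nor that at 72 h without replicate 1 or 2 (adjusted p = 0.08 and 0.06), whereas that at 96 h was called in each case. At 0, 120 and 144 h the log2 differences were 0.13 (95% interval -0.02 to 0.28), -0.01 (-0.10 to 0.08) and 0.13 (0.01 to 0.25, adjusted p = 0.077, or 0.043 with the replicate block). The effect on Foxo4 at 96 h differed from that at 0 h by 0.40 ± 0.07 (adjusted p = 3.8e-05), which was not called at the other 4 times.

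Foxo6 was called once, at 120 h, with 129, 150.4 and 113 normalised read counts in p53KO cells against 64.7, 76.6 and 74.9 in WT-emiRFP cells (log2 0.86 ± 0.21, edgeR adjusted p = 0.0037). Without replicate 1 this was 0.80 (adjusted p = 0.066). At the other 5 times its log2 fold change lay between -0.36 and 0.24, with a 95% interval of -0.87 to 0.15 at 0 h and -0.23 to 0.54 at 72 h, so that differences of the size seen for Foxo4 at 48 and 72 h were not detectable at this depth. The effect at 120 h differed from that at 0 h by 1.22 ± 0.30 (adjusted p = 0.00083), and by 0.90 (adjusted p = 0.06) without replicate 1.

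Foxo3 had a neighbour on its chromosome that was also lower at every time. Of 8 other genes tested within 500 kb of the gene at 0 h, where 6.13% of all genes were called, 1 was, Afg1l at chr10:42312585-42478565 on the same strand. It lies 35.8 kb upstream of the start of Foxo3 and is known to encode a mitochondrial ATPase. It was named after its values were seen. Its log2 fold change in p53KO cells was -1.54 ± 0.14, -1.41 ± 0.09, -1.0 ± 0.07, -0.67 ± 0.10, -0.75 ± 0.11 and -1.08 ± 0.11 at 0 to 144 h (edgeR adjusted p = 2.4e-05, 1.3e-08, 1.1e-07, 0.00033, 4.3e-05 and 7.6e-07). Sesn1, an antioxidant gene that p53 and FoxO proteins are both known to activate, lies 273.4 kb from Foxo3 on the other side and had log2 fold changes of -0.03, -0.05, 0.18, 0.00, 0.06 and -0.15 at 0 to 144 h (adjusted p = 0.93, 0.65, 0.053, 0.99, 0.5 and 0.049), so that it was called lower at 144 h. At 48 and 72 h 2 of 7 neighbours were called lower, Afg1l and Ostm1, and at 96 h Afg1l alone, beside 22.0%, 29.1% and 23.3% of all genes. At 120 h, 6 of 8 neighbours were called lower and 1, Sec63, higher, beside 51.0% of all genes, with a median log2 fold change of -0.56 against 0.05 over all genes. Snx3 was among them and lay below 0 at the earlier times too, at -0.21, -0.09, -0.13, -0.07, -0.41 and -0.59 at 0 to 144 h (adjusted p = 0.17, 0.24, 0.14, 0.53, 0.0013 and 2.8e-06). At 144 h, 7 of the 8 neighbours were called lower and 1, Sec63, higher, beside 65.3% of all genes, with a median of -0.74 against 0.01 over all genes.

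**Figure D3:**
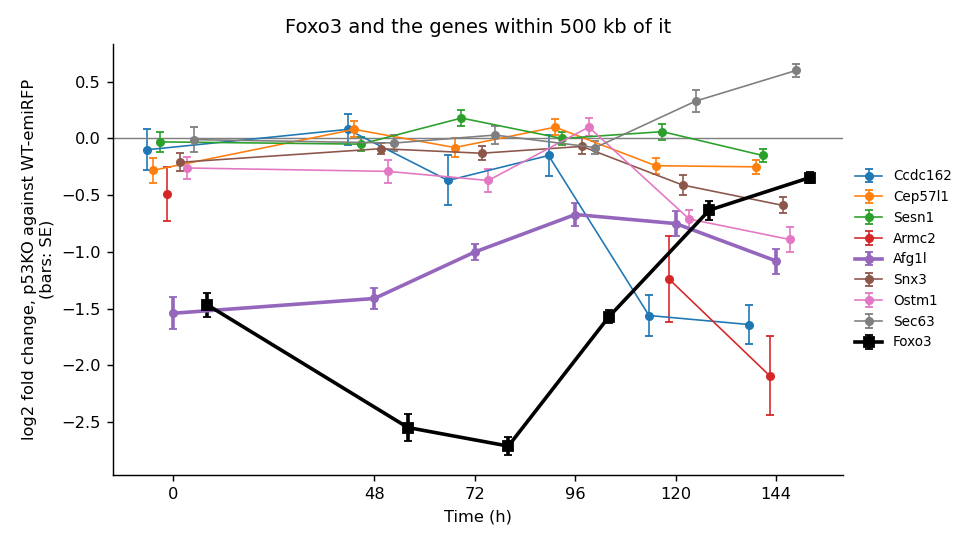
Log2 fold change of p53KO-emiRFP against WT-emiRFP cells (vertical axis, bars are the SE) against time in hours for Foxo3 and the tested genes within 500 kb of it. Foxo3, Afg1l and Snx3 lie below 0 at all 6 times, Afg1l between -1.54 and -0.67 and Snx3 between -0.59 and -0.07, while Sesn1 lies between -0.15 and 0.18.

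The comparison of WT-mCherry cells beside p53KO with those beside WT asked whether the neighbouring cells change FoxO transcripts in cells that keep p53. Foxo3 was higher beside p53KO at 96, 120 and 144 h, and Foxo4 was lower at 120 and 144 h. At these 3 times 1, 2 and 2 members were called, at which 3.93%, 5.95% and 25.5% of all genes passed. At 48 and 72 h, at which 0.0735% and 0.559% passed, edgeR called 0 members, DESeq2 called 0 and 0, and 0 and 1 had an unadjusted p below 0.05.

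Foxo3 at 96 h had 6282, 6178 and 5892 normalised read counts beside p53KO and 4745, 4563 and 5017 beside WT. At 120 h the values were 5068, 5900 and 5635 against 3865, 4432 and 4061, and at 144 h 4952, 5161 and 4901 against 3411, 3650 and 3569. At these 3 times every library beside p53KO was above every library beside WT, and the same-numbered pairs averaged 128%, 134% and 141%. The log2 differences were 0.36 ± 0.05, 0.43 ± 0.08 and 0.50 ± 0.05 (edgeR adjusted p = 0.0065, 0.0092 and 5.4e-05). That at 96 h was not called without replicate 1 (0.33, adjusted p = 0.34) or 2 (0.32, adjusted p = 0.12), nor that at 120 h without replicate 1 (0.44, adjusted p = 0.086) or 3 (0.40, adjusted p = 0.072), whereas that at 144 h was called in each case. At 48 and 72 h the differences were 0.10 (95% interval -0.11 to 0.32) and 0.18 (0.04 to 0.33, adjusted p = 0.39).

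A transcript that marks the emiRFP clones moved with the Foxo3 differences. H2bc14, a histone gene, had 155, 328 and 112 normalised read counts in WT-mCherry cells beside p53KO at 96 h and 66.4, 106 and 32.8 beside WT, and at 120 h 454, 214 and 398 against 125, 112 and 78.3, with no overlap at either time. It had 926, 130.1 and 456 at 144 h beside p53KO and 136, 14 and 104 beside WT, where the groups overlapped while all 3 same-numbered pairs had the larger value beside p53KO. Levels were 4934 to 10520 in emiRFP cells and 6.2 to 8.21 in WT-mCherry mES cells. By the study's reporting notes, purity was left unchecked after the sort. Subtracting the emiRFP share that such a transcript gave, an alternative chosen after seeing the data, used shares of 1.39 to 16.8% of the libraries beside p53KO at 96 to 144 h by H2bc14 and 2.73 to 25.0% by H2bc21. With H2bc14 it took the log2 difference of Foxo3 to 0.38, 0.47 and 0.56 at 96, 120 and 144 h, and with H2bc21 in its place to 0.41, 0.55 and 0.59. As p53KO cells held less Foxo3 than WT-mCherry cells, this subtraction could only raise the difference, and whether emiRFP cells in the sort had another part in it was not tested.

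Cell type marker sums differed in this comparison too, and did so from 48 h on. Values are given beside p53KO against beside WT. At 48 h, when no member was called, 6 naive pluripotency markers summed to 10340 to 11090 against 13810 to 14380 normalised read counts. At 72 h, again with no member called, they summed to 25450 to 27250 against 29620 to 31040. The naive sums were 21860 to 24130 against 26150 to 31750 at 96 h and 36290 to 39950 against 43440 to 53550 at 120 h. At 120 h, 6 haematoendothelial markers summed to 2613 to 2994 against 3675 to 4382 and 4 endoderm markers to 1100 to 1438 against 607 to 824. At 144 h the naive sums overlapped, at 54940 to 64290 against 51320 to 57280, and 4 formative pluripotency markers summed to 6780 to 7142 against 8119 to 9716. The part of cell type in the Foxo3 and Foxo4 differences was not tested.

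Foxo4 in WT-mCherry cells at 120 h had 4568, 4763 and 4654 normalised read counts beside p53KO and 5250, 5421 and 5416 beside WT (log2 -0.20 ± 0.05, edgeR adjusted p = 0.019), with no overlap. At 144 h the values were 4834, 4363 and 4477 against 4842, 5214 and 5445 (log2 -0.18 ± 0.06, adjusted p = 0.046). The first was not called without replicate 1, 2 or 3 (adjusted p = 0.25, 0.088 and 0.12), nor the other, in which the groups did not overlap either, without replicate 2 or 3 (adjusted p = 0.26 and 0.27) or under TMM scaling (-0.14, adjusted p = 0.1). With no low-count filter the adjusted p was 0.076 and 0.051 at the 2 times, and with only the compared groups in the fit 0.11 and 0.085, so that neither was called. Foxo1 at 96 h had 1441, 1517 and 1392 beside p53KO and 1315, 1359 and 1244 beside WT, a log2 difference of 0.15 ± 0.06 (adjusted p = 0.21, or 0.023 with the replicate block), and its differences at the other times lay between -0.19 and -0.02. Foxo6 differed by -0.08 to 0.09 on the log2 scale, with a 95% interval of -0.32 to 0.50 at 120 h. Subtracting the emiRFP share took Foxo4 to -0.21 and -0.23 at 120 and 144 h by H2bc14, and to -0.24 and -0.26 by H2bc21. It took Foxo1 at 120 h from -0.19 to -0.16 by H2bc14 and to -0.11 by H2bc21. These values had no test.

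The WT clones were set against each other as the background for the p53KO comparison. In mES cells Foxo3 was lower in WT-emiRFP than in WT-mCherry cells, which had 8053, 6634 and 6194 normalised read counts (log2 -0.44 ± 0.10, edgeR adjusted p = 0.018), and at 144 h it was higher in WT-emiRFP cells (0.16 ± 0.05, adjusted p = 0.035). So 1 member was called at 0 h and 1 at 144 h, at which 11.1% and 23.8% of all genes passed. From 48 to 120 h, at which 8.89%, 7.64%, 2.15% and 1.24% passed, edgeR and DESeq2 each called 0 members, and 0, 2, 1 and 0 had an unadjusted p below 0.05. The 0 h difference was not called without replicate 2 (-0.47, adjusted p = 0.21), nor that at 144 h without replicate 1, 2 or 3 (adjusted p = 0.15, 0.13 and 0.16), with no low-count filter (adjusted p = 0.13), with only the compared groups (adjusted p = 0.06) or with all 69 libraries in 1 fit (adjusted p = 0.22). With the replicate number as a block, 5 calls were made over the 6 times in place of 2, while calls over all genes went from 2028, 1573, 1354, 395, 233 and 4620 to 3176, 5102, 2865, 2929, 2040 and 6578 at 0 to 144 h. Among the 5 were Foxo3 at 96 h (0.18, adjusted p = 0.0053) and Foxo1 at 144 h (0.16, adjusted p = 0.021). Foxo4 at 72 h, 0.14 (adjusted p = 0.14), was called without replicate 3 (0.20, adjusted p = 0.044). From 48 to 144 h the log2 difference of Foxo3 between the WT clones was 0.05 to 0.18.

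The arm upstream of FoxO holds 21 genes of insulin, IGF and AKT signalling. In p53KO cells 2, 4, 5, 5, 19 and 19 of its genes were called at 0, 48, 72, 96, 120 and 144 h, of 21, 20, 20, 20, 21 and 21 tested, where 6.13%, 22.0%, 29.1%, 23.3%, 51.0% and 65.3% of all genes were called. At 144 h, 14 were higher and 5 lower, with a median log2 fold change of 0.53 against 0.01 over all genes. Igf1r, the IGF receptor, was higher by 1.59 ± 0.06 on the log2 scale (edgeR adjusted p = 1.8e-10), and the adaptor Irs1 by 1.20 ± 0.14 (adjusted p = 4.1e-06). The kinase genes Akt1 and Akt2 were higher by 0.85 ± 0.08 and 0.41 ± 0.05 (adjusted p = 3.4e-07 and 4.3e-06). The ligand Igf1 and the AKT-related kinases Sgk3 and Sgk1 were lower, at -1.91 ± 0.17, -1.43 ± 0.12 and -1.33 ± 0.12 (adjusted p = 3e-07, 2.4e-07 and 4e-07). Some of these genes were called in the other direction earlier, with Irs1 lower at 48 and 72 h (-0.49 and -0.32), Sgk1 higher at 48 h (0.27) and Sgk3 higher at 72 h (0.38). The cell type marker sums given for Foxo1 were apart at 144 h too, and their part in the counts of this arm and of the lists that follow was not tested.

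In WT-mCherry cells beside p53KO at 144 h, 10 of the 21 genes of this arm were called, all lower, beside 25.5% of all genes, with a median of -0.16 against -0.03 over all genes. They held Irs1 (-1.05 ± 0.14, edgeR adjusted p = 0.00024), the PI3K subunit Pik3r1 (-0.73 ± 0.11, adjusted p = 0.00072) and the kinase genes Akt1 and Akt2 at -0.30 and -0.16 (adjusted p = 0.011 and 0.031). Before 144 h the calls were Sgk1 at 72 h (-0.36 ± 0.06, adjusted p = 0.016) and Pik3r1 at 120 h (-0.37 ± 0.08, adjusted p = 0.018). At 48 and 96 h edgeR and DESeq2 each called 0 genes of the arm, and 0 and 2 had an unadjusted p below 0.05. In the same libraries at 144 h the formative marker sums and the emiRFP shares given for Foxo3 moved too, the shares by H2bc14 being 2.26 to 16.8% beside p53KO and 0.0919 to 2.01% beside WT, and their part in the calls of this arm and of the modifiers was not tested.

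Of the 26 enzymes and partners that modify or bind FoxO proteins, 2, 5, 8, 4, 14 and 20 were called in p53KO cells at 0 to 144 h, beside the same 6.13%, 22.0%, 29.1%, 23.3%, 51.0% and 65.3% of all genes. Mdm2, a ubiquitin ligase of p53 that also acts on FoxO proteins and is itself a p53 target, was lower at all 6 times, with log2 fold changes from -1.89 at 72 h to -1.03 at 120 h. At 144 h, 9 were higher and 11 lower, with a median of 0.06. The methyltransferase Setd7 was higher by 1.09 ± 0.06 and the ubiquitin ligase subunit Skp2 by 0.56 ± 0.09, while the acetyltransferase Kat2b was lower at -1.79 ± 0.11 (edgeR adjusted p = 1.9e-09, 6.9e-05 and 7.5e-09). Beside p53KO at 144 h, 12 of 26 were called in WT-mCherry cells, beside 25.5% of all genes, with Mdm2 (0.49 ± 0.04, adjusted p = 2e-05) and the AMPK subunit Prkaa2 (0.46 ± 0.13, adjusted p = 0.023) higher and 10 lower, among them the adaptor Ywhab (-0.44 ± 0.05, adjusted p = 0.00012) and Skp2 (-0.47 ± 0.09, adjusted p = 0.0021).

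Of 42 genes that FoxO proteins are known to regulate, 37, 36, 37, 37, 37 and 39 were tested at 0 to 144 h, and 5, 13, 15, 13, 26 and 28 were called in p53KO cells, beside 6.13%, 22.0%, 29.1%, 23.3%, 51.0% and 65.3% of all genes. At 0 h the 5 called, Cdkn1a, Rbl2, Bbc3, Sod2 and Cited2, were all lower. DESeq2 called 5 at that time, and the median log2 fold change was -0.11 against -0.01 over all genes. From 48 h on both directions were seen, with 5, 4, 4, 11 and 12 higher and 8, 11, 9, 15 and 16 lower at 48 to 144 h. At 48 to 144 h the median log2 fold change of the targets was 0.01, -0.10, -0.05, -0.17 and 0.0. Over all genes it was 0.02, 0.01, -0.01, 0.05 and 0.01. Foxo3 stood lowest against WT at 72 h. Without the targets that p53 is also known to regulate, 12 of 32 were called at 72 h, 3 higher and 9 lower, with a median of -0.09.

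The cell cycle targets held the gene of the lists that was lowered most. Cdkn1a, the CDK inhibitor p21 and a p53 target, was lower at all 6 times, from -1.38 ± 0.06 at 72 h to -4.90 ± 0.10 at 48 h on the log2 scale. Ccng2, a cyclin that FoxO proteins induce, was lower at 48 h (-0.53 ± 0.10) and 72 h (-0.62 ± 0.09) and higher at 120 h (0.39 ± 0.09) and 144 h (0.97 ± 0.09), with edgeR adjusted p-values of 0.0014, 7.8e-05, 0.003 and 3.2e-07. Cdkn1b, the CDK inhibitor p27, was at -0.06, -0.20 and -0.08 at 0 to 72 h (adjusted p = 0.89, 0.15 and 0.5) and higher at 96, 120 and 144 h (0.18, 0.55 and 1.00). Of the cyclins that FoxO proteins repress, Ccnd1 was higher at 48 to 144 h, by 0.17 at 96 h and 1.82 ± 0.09 at 144 h, and Ccnd2 was lower at 72 h (-0.57 ± 0.12, adjusted p = 0.0031) and higher at 120 and 144 h (1.24 ± 0.12 and 2.02 ± 0.16). At 144 h Gadd45a, a DNA damage response gene that p53 also activates, was lower at -1.70 ± 0.08, as it was at 96 and 120 h.

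Among the apoptosis targets, Bbc3, the gene of the BH3-only protein Puma and shared with p53, was lower at all 6 times, from -2.52 ± 0.13 at 72 h to -0.78 ± 0.12 at 144 h on the log2 scale. Pmaip1, the Noxa gene and also a p53 target, was higher from 48 h on, most at 96 h (1.35 ± 0.09, edgeR adjusted p = 5.3e-08). Bcl2l11, the Bim gene, had log2 fold changes of -0.15 to 0.03 over the 6 times (adjusted p = 0.14 to 0.92). Of the oxidative stress targets, the superoxide dismutase gene Sod2 was lower in mES cells (-0.35 ± 0.07), higher at 48 and 72 h (0.18 ± 0.05 and 0.23 ± 0.05) and lower at 120 and 144 h (-0.57 ± 0.06 and -0.69 ± 0.06). The catalase gene Cat and Txnip, a thioredoxin regulator, were lower at 120 and 144 h (-0.42 and -0.70 at 144 h), while Sesn3 lay between -0.23 and 0.07 (adjusted p = 0.069 to 0.95).

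The targets of metabolism, autophagy and proteolysis held genes that were lower from 48 h on. Pdk4, a kinase that restrains pyruvate oxidation, was at -0.82 ± 0.16, -1.67 ± 0.16, -1.99 ± 0.19, -2.51 ± 0.11 and -2.09 ± 0.13 at 48 to 144 h (edgeR adjusted p = 0.0015, 2.2e-06, 4.1e-06, 8.6e-10 and 6.5e-09). The muscle ubiquitin ligase gene Trim63 was lower over the same times, most at 96 h (-2.15 ± 0.18), and the autophagy kinase gene Ulk1 was lower too, at -0.21 at 48 h and -1.14 at 144 h. Its relative Ulk2 was lower at 48 and 72 h (-0.66 and -0.40) and higher at 120 and 144 h (0.64 and 1.22). Fbxo32, another muscle ubiquitin ligase gene, was called once, at 144 h (1.35 ± 0.16). Of the genes that FoxO proteins induce as insulin feedback, Irs2 was lower at 72 and 96 h (-0.33 and -0.30, adjusted p = 0.01 and 0.034) and higher at 120 and 144 h (0.50 and 0.63 ± 0.06), while Insr was called at the last 2 times alone, higher by 0.73 and 0.85 ± 0.06. The pluripotency genes Pou5f1, Sox2 and Klf2 were lower at 144 h, at -2.38, -1.03 and -2.19, and Cited2 was higher at 0.96, whereas at 48 h Klf2 was higher (0.44) and at 0 h Cited2 lower (-0.41), beside the naive marker sums given for Foxo1, whose part was not tested.

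In WT-mCherry cells beside p53KO, in which Foxo3 was higher from 96 h on, 1, 2, 7, 8 and 14 FoxO targets were called at 48 to 144 h, of 36, 37, 37, 37 and 39 tested, beside 0.0735%, 0.559%, 3.93%, 5.95% and 25.5% of all genes. At 144 h, 9 were higher and 5 lower, with a median of 0.06 against -0.03 over all genes. Trim63 (1.58 ± 0.17), Pdk4 (0.74 ± 0.11), Ccng2 (0.46 ± 0.09) and Bnip3, a mitophagy receptor gene (0.54 ± 0.06), were higher (edgeR adjusted p = 7.6e-05, 0.00065, 0.0021 and 5.9e-05). The genes shared with p53, Cdkn1a (0.58 ± 0.10) and Bbc3 (0.75 ± 0.11), were higher too (adjusted p = 0.0014 and 0.0006), as they were at 96 and 120 h. Ccnd2 (-0.77 ± 0.16), Ccnd1 (-0.38 ± 0.09), Bcl2l11 (-0.41 ± 0.07), Irs2 (-0.33 ± 0.06) and Ulk2 (-0.27 ± 0.09) were lower, Ccnd2 after a call in the other direction at 96 h (0.24, adjusted p = 0.048). The H2bc14 levels given for Foxo3 and the cell type marker sums given for this comparison moved in the same libraries, and their part in the list was not tested. With the replicate block, pathway list genes were called 112 times over the 5 times in place of 59, while calls over all genes went from 13, 99, 720, 1123 and 4954 to 869, 402, 3830, 3826 and 7221 at 48 to 144 h.

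**Figure D4:**
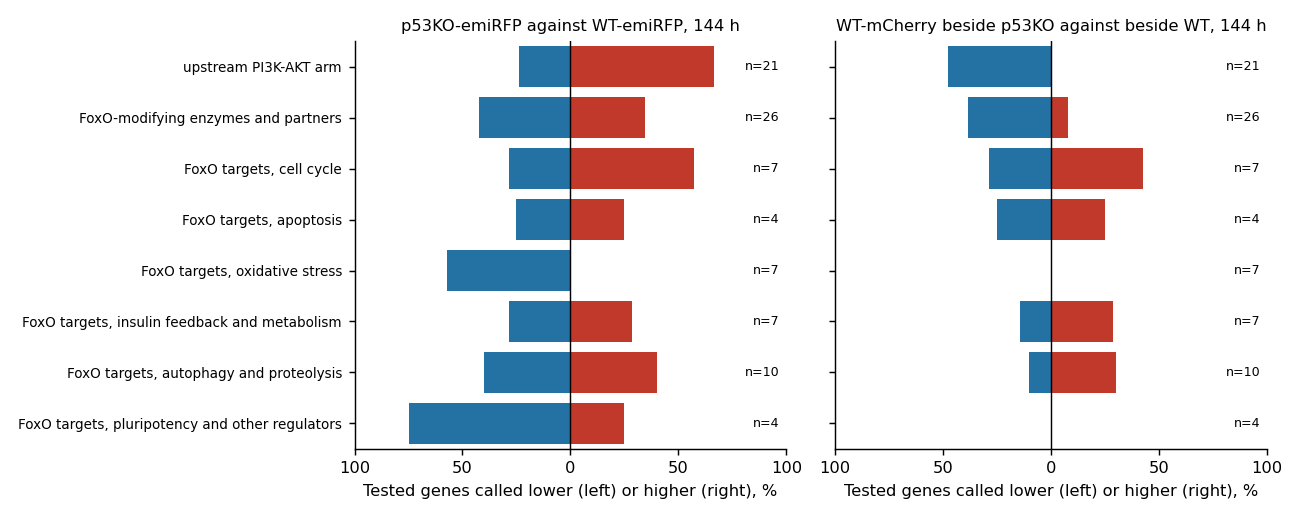
Share of the tested genes of each list (horizontal axis, percent) called lower (blue, to the left) or higher (red, to the right) at 144 h, for the p53KO against the WT-emiRFP clone on the left and the WT-mCherry neighbours of p53KO against those of WT cells on the right. In the upstream arm 14 of 21 genes were higher in p53KO cells and 10 of 21 lower in WT-mCherry cells beside p53KO, where 65.3% and 25.5% of all genes were called.

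Across the 23 conditions, the genes most like each member were found by Pearson's r of mean log2 levels among 14078 genes, as a description with no test, since conditions share clones and times. Foxo1 was most like Bcar3 (0.989), Necab3 (0.978), Ugt8a (0.974), Snrpn (0.974) and Calca (0.973). Foxo3 was most like Cd81 (0.969), Ptp4a3 (0.959), Fndc10 (0.956), Mab21l3 (0.943) and Plk2 (0.941). Foxo4 was most like D2hgdh (0.926), Gpr85 (0.903), Zcchc12 (0.903), Moxd1 (0.899) and Hif3a (0.897), and Foxo6 like Stmn1 (0.929), Gm11223 (0.918), Tpx2 (0.914), Kif22 (0.912) and Maf1 (0.903). The members were less like each other, with r from -0.71 for Foxo4 and Foxo6 and -0.41 for Foxo3 and Foxo4 to 0.38 for Foxo1 and Foxo4.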

How the data were processed

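Bulk polyadenylated RNA of 69 libraries was sequenced strand-specifically. Per the labels and methods, the authors trimmed reads with Trim Galore 0.6.7, aligned them to GRCm38.p6 with STAR 2.7.11b and deposited raw counts of uniquely mapped reads per gene; which strand column was taken is not given in the sources used here. No deposited column lacked a sample.

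Counts were tested with edgeR 4.0.16 in R 4.3.3 by the quasi-likelihood test, with median-of-ratios size factors over all 69 libraries, the filterByExpr filter by group and Benjamini-Hochberg adjustment over all genes. Comparisons within a time used the libraries of that time (9 at 0 h, 12 later), and time steps and the difference of the p53KO effect from 0 h used all 69. The code was tested on simulated counts. Alternatives were TMM scaling, no filter, DESeq2 1.42.0, a minimum absolute log2 fold change of 1, only the compared groups, 1 fit of all libraries, each replicate left out, the longest transcript as length, and the replicate number as a block. Tables and figures were made in Python 3.11.15 with pandas 2.3.3 and numpy 2.4.6. Totals of 26722541 to 72981570 counts set the counting error, which was largest for Foxo6.

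The 3 replicate numbers mark separate experiments. As a check of the pairing, deviations from group means over 14106 genes correlated between same-numbered p53KO and WT-emiRFP libraries at 0.116 to 0.491 at all 6 times, which counts as paired (over 0.1 in every pair). The same held for WT-mCherry cells by neighbour except at 120 h (lowest 0.07), and between WT clones except at 0 h (0.088) and 72 h (0.041), and in 3 of 5 time steps each of WT and p53KO cells. The main tests had no replicate block, because the authors' methods state none. The main counts and shares of calls therefore leave the pairing unused, and the block is given as an alternative.

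Positions are from Gencode vM21, which held 53292 of the 55367 symbols (96.3%). Promoter windows came from RefSeq, which gave them for Foxo1 and Foxo3. The members and lists were chosen with earlier results of these data known. Named genes were the members, a set of 24 well known pathway genes and, per list and comparison at 144 h, the 2 largest called rises and falls whose mean log2 CPM reached 1 and whose 3 pairs shared the direction. Afg1l, Sec63, Ostm1 and Snx3 were named after their values were seen, as were the times given for genes named at 144 h. Some genes that the rule names are not reported here.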

Additional observations from a re-analysis of the deposited data

Results flagged for a closer look

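The difference of the p53KO effect at a gastruloid time from that in mES cells was past the threshold of edgeR's test for 8 of 20 member and time combinations, which is why these are listed. At 48 to 144 h, 5.98%, 10.5%, 8.65%, 35.4% and 50.1% of all genes passed the same test, so a call at 120 or 144 h does little to set a member apart. For Foxo3 it was -1.08 ± 0.13 at 48 h (edgeR adjusted p = 6.7e-08) and -1.25 ± 0.13 at 72 h (adjusted p = 5.1e-10), then 0.83 ± 0.13 at 120 h (adjusted p = 5.8e-07) and 1.12 ± 0.13 at 144 h (adjusted p = 1.6e-10), all on the log2 scale. For Foxo1 it was -0.72 ± 0.11 at 120 h (adjusted p = 3.8e-07) and -0.76 ± 0.11 at 144 h (adjusted p = 5.1e-08). Foxo4 had 0.40 ± 0.07 at 96 h (adjusted p = 3.8e-05). Foxo6 had 1.22 ± 0.30 at 120 h (adjusted p = 0.00083), which was 0.90 (adjusted p = 0.06) without replicate 1. Some of the cell type marker sums given for Foxo1 were apart at each of these times and at 0 h, and their part in these values was not tested.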

How the results depend on the processing

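The 4 FoxO genes had 13 calls in p53KO against WT-emiRFP cells over 6 times, 5 in WT-mCherry cells by neighbour over 5 times, 2 between the WT clones, 16 in the WT steps, 16 in the p53KO steps and 8 in the difference of the p53KO effect from 0 h. Requiring an absolute log2 fold change of 1 left 4, 0, 0, 2, 3 and 4 of these, where edgeR's unadjusted p was below 0.05 for 8 in the neighbour comparison and 5 between clones. Pathway list genes went from 201 to 62 calls in p53KO cells and from 59 to 4 by neighbour. The 5 neighbour calls became 3 with no low-count filter and 3 with only the compared groups, Foxo4 at 120 and 144 h being lost in both, and 2 to 2 with 1 replicate left out. The 2 clone calls became 1 with no filter, 1 with only the compared groups, 1 with all 69 libraries in 1 fit, Foxo3 at 144 h being lost each time, and 5 with the replicate block, and 0 to 2 with 1 replicate left out. The 59 pathway calls by neighbour became 112 with the replicate block and 24 to 46 with 1 replicate left out. Calls over all genes moved with these, at 96 h from 720 to 3830 of 18343 with the block and to 0, 24 and 579 without replicate 1, 2 or 3.

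Where same-numbered libraries were not shown to pair, the replicate block called Foxo1 in WT-mCherry cells by neighbour at 120 h (adjusted p = 0.026) and Foxo3 between WT clones at 72 h (adjusted p = 0.021). Beyond the values printed in the report, the block changed no call of a member. With no low-count filter 7 member calls were lost, the p53KO steps of Foxo1 to 144 h and of Foxo4 to 96 and 144 h and the WT step of Foxo1 to 120 h beside Foxo4 by neighbour at 120 and 144 h and Foxo3 between clones at 144 h. TMM scaling lost 2, Foxo1 in the p53KO step to 144 h and Foxo4 by neighbour at 144 h. DESeq2 left 127 of 128 member values on their side of the threshold. Its exception, the p53KO step of Foxo6 to 96 h (adjusted p = 0.048), was also called under TMM scaling (0.045), with no low-count filter (0.031) and with only the compared groups (0.015). Only the compared groups also gave the p53KO step of Foxo6 to 120 h (0.021), and all 69 libraries in 1 fit gave Foxo4 in p53KO cells at 144 h (0.018). TMM scaling moved the median gene by at most 0.038 on the log2 scale.

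The values that changed sign were not called in either setting, and those after subtraction had no test. They were, on the log2 scale, 0.021 for Foxo1 by neighbour at 144 h under TMM scaling and 0.001 for Foxo6 between clones at 144 h with the replicate block. After subtraction of the emiRFP share, Foxo1 by neighbour at 144 h was 0.03 by H2bc14 and 0.06 by H2bc21, and Foxo6 by neighbour at 120 h -0.01 by H2bc21. With 1 replicate left out in turn, the values that changed sign ran as follows. Foxo1 ran from -0.005 to 0.155 in p53KO cells at 0 h, -0.045 to 0.208 between WT clones at 0 h, -0.031 to 0.008 between WT clones at 48 h, -0.103 to 0.011 between WT clones at 72 h, -0.047 to 0.032 by neighbour at 144 h and -0.072 to 0.089 in the difference from 0 h at 48 h. Foxo4 ran from -0.049 to 0.023 between WT clones at 0 h, -0.032 to 0.048 by neighbour at 72 h, -0.027 to 0.002 in p53KO cells at 120 h, -0.028 to 0.001 in the WT step from 120 h and -0.058 to 0.046 in the difference from 0 h at 144 h. Foxo6 ran from -0.306 to 0.019 between WT clones at 48 h, -0.065 to 0.441 in p53KO cells at 72 h, -0.001 to 0.241 by neighbour at 72 h, -0.356 to 0.17 between WT clones at 72 h, -0.087 to 0.177 by neighbour at 96 h, -0.29 to 0.045 between WT clones at 96 h, -0.076 to 0.344 by neighbour at 120 h, -0.168 to 0.109 between WT clones at 144 h and -0.13 to 0.166 in the WT step from 96 h. The cause of these changes was not tested, beyond the fewer libraries of the leave-outs. At 43 to 333 counts per library, Foxo6 was the member whose differences depth limited most.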
